A study of Mus musculus with 75 samples.

Results

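Haematopoietic stem cells (HSC) of Kmt2c knockout (ko) mice were compared with those of wild-type (wt) mice after both had received the cytokine interleukin-1 (IL-1). The comparison holds 7 of the 75 RNA-seq libraries of the series, all 4 labelled HSC ko IL1 and all 3 labelled HSC wt IL1. Every gene of the count table was eligible. The ko mice carried the genotype Kmt2c f/f; Vav-Cre, in which floxed Kmt2c alleles are deleted by a Cre recombinase driven by the Vav promoter, active in the whole blood lineage. The mice labelled wild type have no Cre named, so effects of Cre and of the Kmt2c deletion cannot be told apart. All mice were 8 weeks old and were given 0.5 µg of IL-1 per mouse over 3 days. Ko and wt HSC of PBS-treated mice (4 libraries each, counted in the same table) and untreated ko and wt HSC (4 libraries each, in a separate table) carry the same genotypes. They are given side by side where they bear on a gene. The titles, sources and descriptions call the 7 libraries HSC, whereas their cell type entry reads HPCs, as for the HPC libraries of the series. The labels do not say whether a library came from 1 animal or a pool, so p-values measure the spread between libraries only. In bulk libraries, fewer cells of a type and less RNA per cell cannot be told apart.

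KMT2C, also called MLL3, is a lysine methyltransferase that places monomethyl marks on histone H3 lysine 4 at enhancers, the distant DNA elements that raise transcription of nearby genes. It shares complex subunits with its paralogue KMT2D, among them the H3K27 demethylase KDM6A. IL-1 is an alarm cytokine that signals through IL1R1 and its co-receptor IL1RAP to MYD88 and NF-kB, and in HSC it is known to drive division and the production of myeloid cells.

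Kmt2c, the deleted gene, was read first. Levels are in counts per 1000000 counts (CPM), scaled by trimmed mean of M values. Kmt2c was at 14.6, 16.8, 16.5 and 13.1 CPM in the 4 ko IL-1 libraries, 14.5 in the library labelled HSC wt IL1 replicate 1, and 43.6 and 44.1 in wt IL-1 replicates 2 and 3. The library labelled wt replicate 1 therefore lay inside the range of the ko libraries and below each of the 6 other wt HSC libraries of its table, of which the lowest had 40.6 CPM. The remaining Kmt2c reads of ko HSC were not resolved by exon, since the table holds 1 count per gene. That library keeps its label throughout. Counts of called genes are given with it and without it. The change of a called gene is given without it, with the log2 fold change over all 7 libraries after it as the value as labelled. Leaving it out was decided from its Kmt2c level, so the Kmt2c difference without it (log2 fold change of -1.52 ± 0.26 (SE), adjusted p = 0.0066) is a consequence of that choice. With all 7 libraries as labelled, Kmt2c had a log2 fold change of -1.16 ± 0.32 (SE), adjusted p = 0.279.

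Library depth, in units of 1000000 counts, was 31.7, 33.1, 38.7 and 24.6 in the ko libraries, 31.0 in the library labelled wt replicate 1, and 40.3 and 18.6 in wt replicates 2 and 3. HSC genes were present in all of them: the summed level of 30 HSC-associated genes was 8031 to 8877 CPM in ko, 8919.5 CPM in the library labelled wt replicate 1, and 8449 and 8685 CPM in wt replicates 2 and 3. Reads from mitochondrial genes made up 0.446, 1.06, 0.859 and 3.55% of the ko libraries, 2.11% of the library labelled wt replicate 1, and 4.9 and 4.48% of wt replicates 2 and 3. This share did not overlap between ko and wt replicates 2 and 3. The 100 most abundant genes took 26.7 to 36.4% of ko reads and 35.1 and 39.7% of the reads of wt replicates 2 and 3. Sex was mixed. Ko replicate 1 and wt replicate 3 had Y-linked reads and next to no Xist. Ko replicates 2 to 4 had Xist and next to no Y-linked reads. Wt replicate 2 had both, and the library labelled wt replicate 1 had Y-linked reads and little Xist. The Y-linked level and the mitochondrial share were each added to the fit as a covariate, with the counts that this gave below.

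With all 7 libraries as labelled, no gene of 16538 tested passed an adjusted p under 0.05 in edgeR's quasi-likelihood test, a percentage of 0. The smallest adjusted p was 0.0890. At an unadjusted p under 0.05, 1412 genes passed, 8.54% of those tested. Other tools called genes on the same 7 libraries. DESeq2 called 89 (21 higher and 68 lower in ko), and limma voom with sample weights called 393 (142 higher and 251 lower). Without the library labelled wt replicate 1, the quasi-likelihood test called 159 of 17068 genes, 0.932%. Of these, 34 were higher in ko (0.199%) and 125 lower (0.732%). This count rested on the remaining wt libraries, since it was 22 without wt replicate 2 and 50 without wt replicate 3. It was 103 without ko replicate 1 and 90 without ko replicate 2. It was 95 with a Y-linked covariate and 49 with the log2 mitochondrial share as a covariate, an alternative chosen after seeing the data. All 4 ko libraries lay on 1 side of wt replicates 2 and 3 for 11.5% of genes on the higher side and 14.2% on the lower side. With every library as labelled, 4.41% of genes had all ko above all wt libraries and 4.51% had all ko below.

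The library labelled wt replicate 1 had no part in calling the 159 genes. Its level in each was placed on a line that runs from the mean of wt replicates 2 and 3, at 0, to the ko mean, at 1, on the log2 scale. It lay nearer the ko mean for 153 of the 159 genes and inside the range of the 4 ko libraries for 92, with a median position of 0.90. Among 246 genes called in untreated ko against wt HSC, a set chosen on other libraries, it lay nearer the ko IL-1 mean for 224, with a median position of 0.99. Genes that told ko IL-1 from ko PBS HSC (47 called) put it with the IL-1 libraries: it was closer to ko IL-1 for 42 of them, against 43 for wt replicate 2 and 45 for wt replicate 3.

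**Figure D1:**
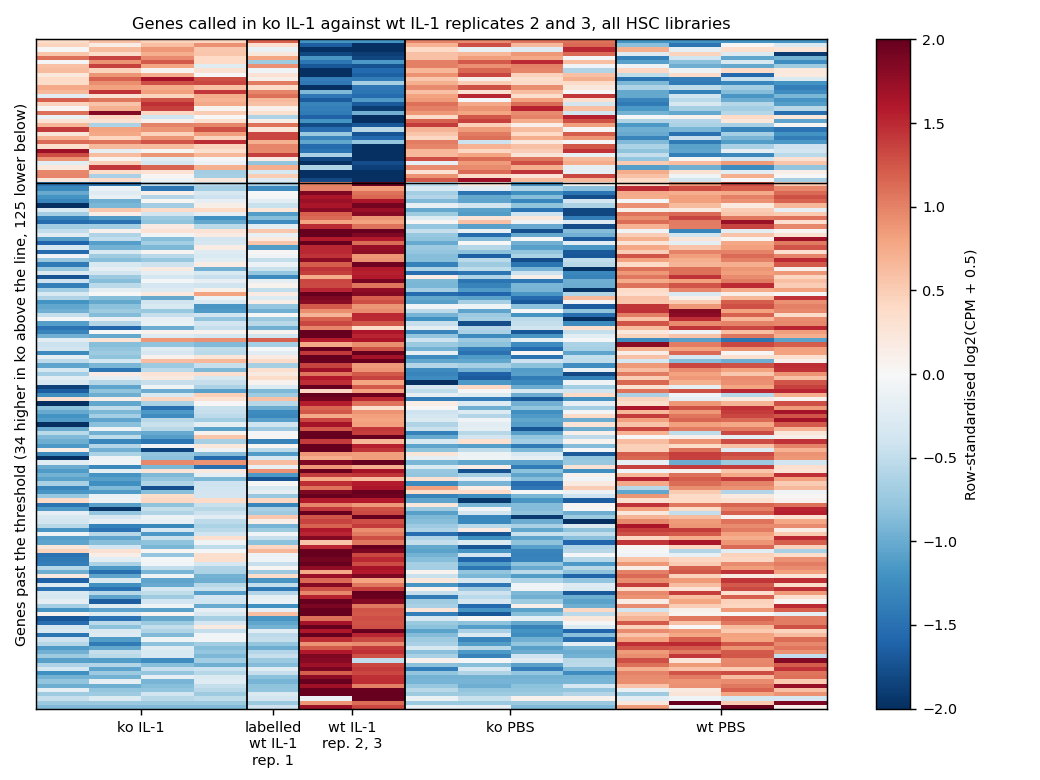
Levels of the 159 genes called in ko IL-1 against wt IL-1 replicates 2 and 3, as row-standardised log2(CPM + 0.5), with 1 column per HSC library and 1 row per gene ordered by fold change. The column labelled wt IL-1 replicate 1 has the colours of the ko columns over most rows (nearer the ko mean in 153 of 159). The PBS columns show the ko and wt blocks again. They were not part of the contrast that chose the genes, but they entered its fit and so its filter, scaling and spread.

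Of 44 named genes called without the library labelled wt replicate 1, 5 were called under each of 14 alternatives as well (other tools, filters and covariates, and a further library left out). They were Cd96, Clec4e, Hdac9, Phldb2 and Bgn, all lower in ko. Of the 44, 36 lost the call without wt replicate 2, 27 without wt replicate 3, 29 with the mitochondrial share and 13 with the Y-linked covariate. Leaving out 1 ko library ended 5 to 12 of the calls. Cd96, an immunoglobulin-family adhesion receptor of lymphoid cells that is also found on stem cells, had 2.89, 5.4, 6.7 and 3.68 CPM in ko, 4.65 in the library labelled wt replicate 1 and 63.1 and 53.7 in wt replicates 2 and 3. The ko range lay far below wt replicates 2 and 3 and held the library labelled wt replicate 1. Naming by size asked for no overlap between ko and wt replicates 2 and 3, so a gap was fixed beforehand for Cd96, Clec4e, Hdac9 and Phldb2. Without that library Cd96 had a log2 fold change of -3.63 ± 0.29 (SE), adjusted p = 5.47e-06, which became -3.11 ± 0.52 with adjusted p = 0.089 when it was kept. Clec4e, which encodes the C-type lectin Mincle that senses mycobacterial glycolipids, had 2.18, 2.27, 1.6 and 1.34 CPM in ko, 1.55 in the library labelled wt replicate 1 and 28.2 and 19.2 in wt replicates 2 and 3. Clec4e fell by 3.67 on the log2 scale (SE 0.31, adjusted p = 5.63e-06) without that library and had a log2 fold change of -3.13 with it (adjusted p = 0.089). Hdac9, a class IIa histone deacetylase, had 0.311, 0.886, 0.826 and 1.17 CPM in ko, 1.36 in the library labelled wt replicate 1 and 11 and 12.7 in wt replicates 2 and 3. Hdac9 fell by 3.89 on the log2 scale (SE 0.43, adjusted p = 2.10e-04) without that library and had a log2 fold change of -3.39 as labelled (adjusted p = 0.089). Cd96, Clec4e and Hdac9 shared the smallest adjusted p as labelled with Fyb, an adaptor gene named after its values were seen, and none of the 4 passed.

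Phldb2, which anchors microtubules at the cell cortex, had 0.373, 0.471, 1.56 and 0.649 CPM in ko, 0.517 in the library labelled wt replicate 1 and 8.47 and 10.1 in wt replicates 2 and 3. Bgn, which encodes the matrix proteoglycan biglycan, had 13.5, 24.7, 21.7 and 20.2 CPM in ko, 23.3 in the library labelled wt replicate 1 and 59 and 77.6 in wt replicates 2 and 3. Neither gene overlapped between ko and wt replicates 2 and 3, which for Phldb2 the naming by size required. Over all genes, 14.2% had every ko library below both. Phldb2 fell by 3.57 on the log2 scale (SE 0.49, adjusted p = 0.00179, and -3.03 as labelled). Bgn fell by 1.77 on the log2 scale (SE 0.24, adjusted p = 0.00162, and -1.41 as labelled). After PBS the same genes were lower in ko: Cd96 had 3.42, 2.21, 2.76 and 2.74 CPM in ko PBS and 26.3, 31.9, 40.8 and 27.7 CPM in wt PBS HSC, and Bgn had 30.8, 44.3, 35 and 34 CPM in ko PBS and 95.4, 109, 128 and 129 CPM in wt PBS HSC.

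**Figure D2:**
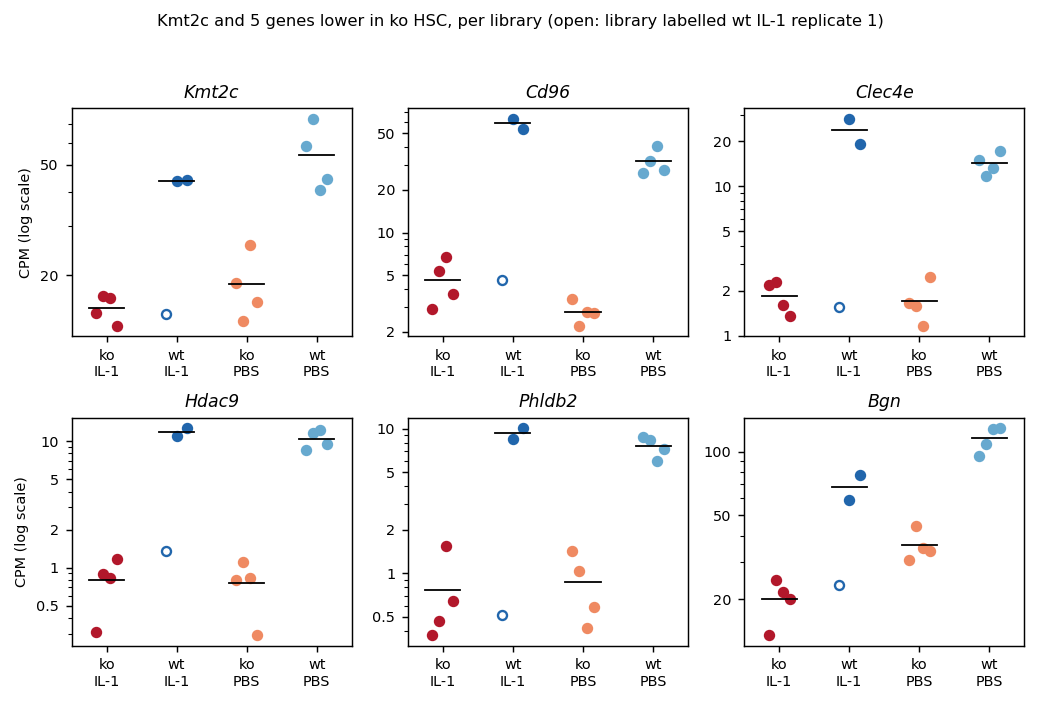
CPM on a log axis for Kmt2c and the 5 named genes called under all 14 alternatives, 1 point per HSC library by genotype and treatment, with the line at the mean of the filled points. The open circle is the library labelled wt IL-1 replicate 1, which lies with the ko points in each panel, as for Cd96 at 4.65 CPM against 53.7 and 63.1 CPM in the other wt IL-1 libraries.

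Rgs7bp, P2ry10, Rhag, Plscr2, Gprin3 and Muc2 were also among the 10 largest falls by the naming rule. Rgs7bp, which binds R7 regulators of G protein signalling, had 1.27, 0.166, 0.85 and 1.04 CPM in ko, 0.904 in the library labelled wt replicate 1 and 9.4 and 9.82 in wt replicates 2 and 3. Rgs7bp fell by 3.53 on the log2 scale (SE 0.54, adjusted p = 0.00224, and -3.01 as labelled), and its adjusted p was 0.0619 with the mitochondrial share as a covariate. P2ry10, a lysophospholipid receptor of lymphocytes, had 1.93, 0.498, 3.09 and 3.33 CPM in ko, 1.74 in the library labelled wt replicate 1 and 25.9 and 21 in wt replicates 2 and 3. P2ry10 fell by 3.41 on the log2 scale (SE 0.57, adjusted p = 0.00547, and -2.88 as labelled). Its neighbour and paralogue P2ry10b had 0.809, 0.858, 1.65 and 3.38 CPM in ko, 1.65 in the library labelled wt replicate 1 and 11.9 and 7.67 in wt replicates 2 and 3. P2ry10b fell by 2.56 on the log2 scale (adjusted p = 0.014, and -2.10 as labelled). P2ry10b was chosen after its values were seen, for its position. Reads shared by these near copies could have been split between them by the counting. Rhag, a Rh-complex ammonium channel of red cells, had 1.52, 1.91, 2.6 and 1.17 CPM in ko, 2.13 in the library labelled wt replicate 1 and 29.6 and 15.9 in wt replicates 2 and 3. Rhag fell by 3.64 on the log2 scale (SE 0.58, adjusted p = 0.0037, and -3.13 as labelled). Plscr2, a phospholipid scramblase, had 1.12, 0.305, 0.944 and 0.996 CPM in ko, 1.29 in the library labelled wt replicate 1 and 14.1 and 8.51 in wt replicates 2 and 3. Plscr2 fell by 3.75 on the log2 scale (SE 0.67, adjusted p = 0.00808, and -3.24 as labelled). Gprin3, a G protein-regulated inducer of neurite outgrowth, was near 0 in ko with 0, 0, 0.543 and 0.433 CPM against 6.15 and 4.37 CPM in wt replicates 2 and 3. Gprin3 fell by 4.41 on the log2 scale (SE 0.91, adjusted p = 0.0299, and -3.84 as labelled). Muc2, an intestinal mucin, had the largest named fold change (-6.14) but rested on 1 library: it had 0.0622, 0.138, 0.0236 and 0.0433 CPM in ko, 0.0969 in the library labelled wt replicate 1 and 0.219 and 10.004 in wt replicates 2 and 3. Without wt replicate 3 its adjusted p was 0.743, and as labelled it did not pass the filter on low counts. P2ry10 lost its call in 2 of 14 alternatives, Rhag in 1, Plscr2 in 3 and Gprin3 in 8.

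Genes higher in ko HSC were fewer than those lower, 34 against 125. Evc, a ciliary protein that passes on Hedgehog signals, had 12.5, 15.8, 10.9 and 6.54 CPM in ko, 9.39 in the library labelled wt replicate 1 and 1.26 and 0.479 in wt replicates 2 and 3. Evc rose by 3.65 on the log2 scale (SE 0.56, adjusted p = 0.00247, and 1.60 as labelled). Evc2, its partner in the same complex, had 8.68, 13.9, 5.5 and 5.84 CPM in ko, 5.13 in the library labelled wt replicate 1 and 1.42 and 2.04 in wt replicates 2 and 3. Evc2 rose by 2.31 on the log2 scale (SE 0.49, adjusted p = 0.0261, and 1.56 as labelled). Fkbp10, a prolyl isomerase that folds collagen in the endoplasmic reticulum, had 18.4, 19, 18.2 and 16.5 CPM in ko, 14.2 in the library labelled wt replicate 1 and 2.24 and 3.71 in wt replicates 2 and 3. Fkbp10 rose by 2.62 on the log2 scale (SE 0.36, adjusted p = 0.00179, and 1.42 as labelled). Serpinh1, the collagen chaperone HSP47, had 77.2, 52.5, 55.1 and 71.6 CPM in ko, 36.2 in the library labelled wt replicate 1 and 11 and 21.1 in wt replicates 2 and 3. Serpinh1 rose by 2.01 on the log2 scale (SE 0.32, adjusted p = 0.0033, and 1.49 as labelled). For all 4 genes the lowest ko library lay above both remaining wt libraries, and the library labelled wt replicate 1 lay above those as well. Over all genes, 11.5% had every ko library above both. The gap between ko and the remaining wt libraries was required by the naming by size for Evc, Evc2 and Fkbp10. Evc lost its call in 1 of 14 alternatives, Evc2 in 6, Fkbp10 in 1 and Serpinh1 in 1.

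Map1b, a microtubule-associated protein, had 9.39, 17.8, 11.1 and 4.68 CPM in ko, 12.3 in the library labelled wt replicate 1 and 1.15 and 1.08 in wt replicates 2 and 3. Map1b rose by 3.27 on the log2 scale (SE 0.56, adjusted p = 0.00626, and 1.14 as labelled). Fez1, an adaptor of kinesin motors, had 4.73, 7.42, 8.33 and 10.6 CPM in ko, 14.4 in the library labelled wt replicate 1 and 1.48 and 1.32 in wt replicates 2 and 3. Fez1 rose by 2.47 on the log2 scale (SE 0.47, adjusted p = 0.0128, and 0.43 as labelled). Cd4, the T-cell co-receptor, which mouse HSC are known to carry at low level, had 17.2, 18.7, 34.4 and 21.3 CPM in ko, 19 in the library labelled wt replicate 1 and 4.92 and 3.77 in wt replicates 2 and 3. Cd4 rose by 2.39 on the log2 scale (SE 0.45, adjusted p = 0.0109, and 1.301 as labelled). Of 20 T, NK and innate lymphoid genes, 14 stayed below 1 CPM in every IL-1 library. Scd1, which desaturates fatty acids, had 7.87, 12.5, 19.3 and 8.01 CPM in ko, 8.23 in the library labelled wt replicate 1 and 2.84 and 1.86 in wt replicates 2 and 3. Scd1 rose by 2.33 on the log2 scale (SE 0.42, adjusted p = 0.00796, and 1.45 as labelled). In each of these 4 genes every ko library lay above wt replicates 2 and 3, which the naming by size required. Asns, the asparagine synthetase of the amino-acid stress response, had 197, 84.7, 93.2 and 107 CPM in ko, 142 in the library labelled wt replicate 1 and 48.1 and 38.2 in wt replicates 2 and 3. Asns rose by 1.49 on the log2 scale (SE 0.33, adjusted p = 0.032, and 0.66 as labelled). Ko replicate 1 was its highest library, and its adjusted p missed 0.05 without that library. Aebp1, Armh4 and Spats2 completed the 10 largest rises by the naming rule, with log2 fold changes of 3.13, 2.65 and 2.43. As labelled, the log2 fold changes of the 10 were smaller, from 0.43 for Fez1 to 1.63 for Aebp1. Map1b lost its call in 3 of 14 alternatives, Fez1 in 2, Cd4 in 3, Scd1 in 3 and Asns in 4.

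Several called genes were chromosomal neighbours. Of the 159, 13 pairs lay within 100000 bases of each other in the GENCODE M21 annotation (GRCm38), and 12 of these pairs changed in the same direction. Of all 40270 pairs of tested genes within that distance, 53.34% had fold changes of the same sign and 0.0323% were both called. With 125 of the 159 genes lower, 66.17% of all their pairs, at any distance, had the same sign. The pairs overlap in members, because 4 of them come from 1 stretch of chromosome 19 that holds Ms4a6c, BE692007, Ms4a6b and Ms4a3. Ms4a6c and BE692007 overlap on opposite strands, so their reads may not be told apart. Evc and Evc2 on chromosome 5 stand head to head, 1604 bases apart, and both were higher in ko. Phldb2 and Cd96 on chromosome 16 are 82058 bases apart on the same strand, and both were lower. Further pairs that were lower together were the IL-18 receptor genes Il18r1 and Il18rap on chromosome 1 (14507 bases), the complement genes C1qb and C1qc on chromosome 4 (3616 bases), and the lectins Clec4d and Clec4e on chromosome 6 (6523 bases). Pecam1, an endothelial and platelet adhesion receptor, and Milr1, a mast-cell inhibitory receptor, stand head to head on chromosome 11, 597 bases apart, and were both lower. The members of the pairs were named for their positions after the calls were known. Kmt2c itself lies on chromosome 5, and of 29 genes tested within 1000000 bases of it 2 were called, Kmt2c and Actr3b. Over all genes 0.932% were called. With Actr3b the only call besides the deleted gene, the count does not set this stretch apart. Actr3b, an actin-related protein, was chosen after its values were seen. It had 3.64, 5.73, 5.17 and 3.12 CPM in ko, 3.84 in the library labelled wt replicate 1 and 0.437 and 0.839 in wt replicates 2 and 3. Actr3b rose by 2.85 on the log2 scale (adjusted p = 0.023, and 1.36 as labelled), in the direction opposite to Kmt2c.

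The 250 bases before the starts of Evc and Evc2, which rose together, and of Cd96, which had the smallest adjusted p of the falls, are shown. They come from RefSeq (GRCm38.p6), run 5′ to 3′ towards the gene, and have each CG dinucleotide in capitals. They lie at chr5:37336882-37337131 on the minus strand (Evc), chr5:37338228-37338477 on the plus strand (Evc2) and chr16:46120249-46120498 on the minus strand (Cd96), and their start sites lie 13, 21 and 3 bases from the gene starts in GENCODE M21. The Phldb2 window begins at a site 109220 bases from that gene's start there and is not shown. Of the 159 called genes, 119 matched by symbol one of the 32851 windows searched.
Evc: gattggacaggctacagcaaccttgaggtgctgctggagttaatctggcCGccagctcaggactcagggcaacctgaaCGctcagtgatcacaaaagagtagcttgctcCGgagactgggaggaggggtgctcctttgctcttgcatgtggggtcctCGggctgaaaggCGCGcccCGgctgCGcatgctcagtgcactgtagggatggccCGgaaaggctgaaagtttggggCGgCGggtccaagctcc
Evc2: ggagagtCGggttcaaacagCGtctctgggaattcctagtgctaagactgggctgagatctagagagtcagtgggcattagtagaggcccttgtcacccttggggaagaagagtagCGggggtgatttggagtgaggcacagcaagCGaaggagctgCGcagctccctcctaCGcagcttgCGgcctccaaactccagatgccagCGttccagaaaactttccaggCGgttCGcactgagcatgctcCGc
Cd96: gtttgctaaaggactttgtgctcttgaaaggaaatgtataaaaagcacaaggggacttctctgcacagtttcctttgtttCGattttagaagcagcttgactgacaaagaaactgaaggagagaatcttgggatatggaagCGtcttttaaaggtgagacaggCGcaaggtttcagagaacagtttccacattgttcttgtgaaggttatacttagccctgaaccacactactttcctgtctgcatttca

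The Evc and Evc2 windows held 11 CG dinucleotides each, and 35.6% of 32851 such windows held as many or more. The Cd96 window held 3 (71.0% of windows), against a median of 6. The Cd96 window held the TATA letters TATAAA and the RUNX letters TGTGGT, searched on both strands. These were present in 12.37% and 14.05% of the 32851 windows searched. The Evc and Evc2 windows held neither, and none of the 3 held the GATA letters AGATAA (9.99% of windows).

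The receptors through which HSC sense IL-1 and IL-18 were examined next, since the mice had been given IL-1. Of 18 receptor and adaptor genes tested, 2 were lower in ko and none higher without the library labelled wt replicate 1 (0.732% of all genes were called lower). The list median was -0.21 against -0.01 over all genes. Il18r1, the ligand-binding chain of the IL-18 receptor, had 0.777, 1.41, 2.15 and 1.13 CPM in ko, 0.775 in the library labelled wt replicate 1 and 7.68 and 6.77 in wt replicates 2 and 3. Il18r1 fell by 2.39 on the log2 scale (SE 0.46, adjusted p = 0.0136, and -1.88 as labelled). Il18rap, its signalling chain, had 3.27, 9.22, 10.4 and 11.3 CPM in ko, 9.33 in the library labelled wt replicate 1 and 26.3 and 30.9 in wt replicates 2 and 3. Il18rap fell by 1.74 on the log2 scale (SE 0.41, adjusted p = 0.0479, and -1.37 as labelled). Neither gene overlapped between ko and wt replicates 2 and 3, and 14.2% of all genes had every ko library below both. The Il18rap call was lost in 8 of 14 alternatives, whereas Il18r1 lost it in 3, with the mitochondrial share and without either remaining wt library.

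Il1r1, the IL-1 receptor itself, had 8.37, 7.31, 11.8 and 8.7 CPM in ko, 6.52 in the library labelled wt replicate 1 and 17.1 and 25.4 in wt replicates 2 and 3. No ko library reached the wt replicates 2 and 3, as for 14.2% of all genes, and the gene did not pass (log2 fold change of -1.22 ± 0.35 (SE), adjusted p = 0.129, and -0.85 as labelled). Untreated HSC gave 2.16, 3.25, 2.67 and 1.89 CPM in ko and 8.52, 7.95, 8.43 and 8.6 CPM in wt for Il1r1, where it was called (log2 fold change of -1.75, adjusted p = 0.00192). The co-receptor Il1rap had a log2 fold change of 0.77, adjusted p = 0.337, and 0.57 as labelled, and the adaptors Myd88 and Irak4 had log2 fold changes of -7.5e-04 (SE 0.20) and 0.08 (SE 0.22). The decoy receptor Il1r2 and the regulator Sigirr did not pass either (-0.67 ± 0.63 and -0.07 ± 0.19, SE). After PBS, Il18rap had 1.35, 0.827, 1.93 and 0.584 CPM in ko PBS and 24.9, 19.2, 14.3 and 21.3 CPM in wt PBS HSC, with a log2 fold change of -4.07, adjusted p = 3.32e-04. In edgeR's test the difference between treatments did not pass for Il18rap, with 2.335 on the log2 scale, IL-1 minus PBS, and adjusted p = 0.848 without the library labelled wt replicate 1. Of 21 alternatives without that library, 1 called it, that with no filter on low counts (2.39, adjusted p = 4.18e-04), and the adjusted p ran up to 1. With all libraries, 0 of 22 alternatives called it (lowest adjusted p = 0.0642).

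**Figure D3:**
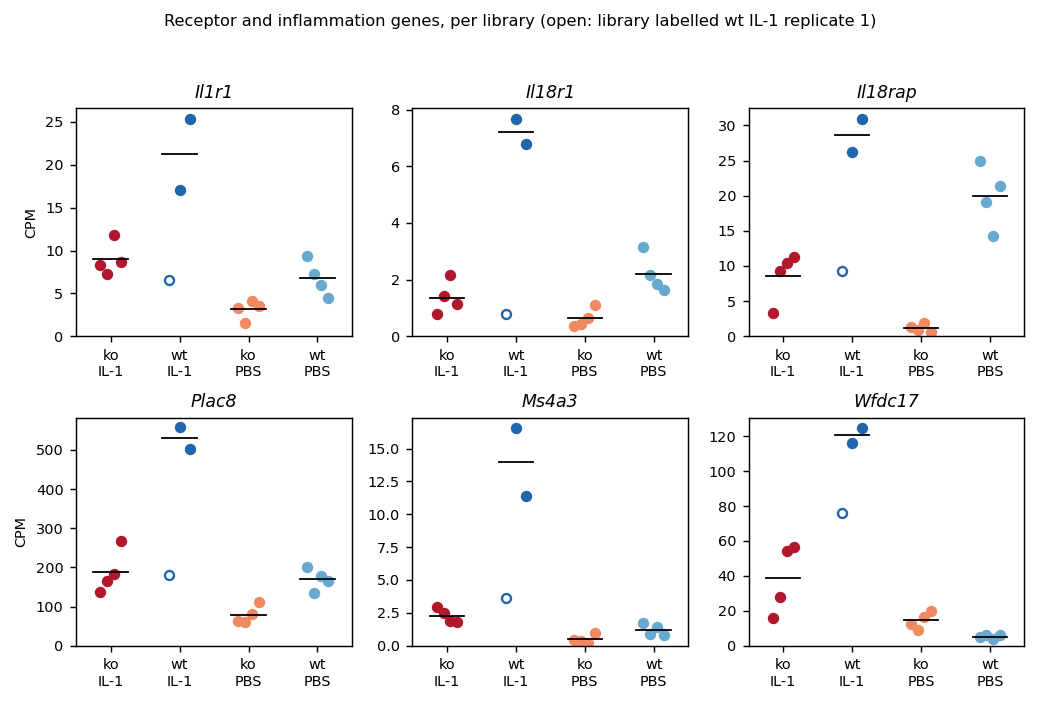
CPM on a linear axis from 0 for 3 receptor genes and 3 myeloid or inflammation genes, 1 point per HSC library, with the line at the mean of the filled points and the library labelled wt IL-1 replicate 1 open. All 4 ko IL-1 points lie below wt IL-1 replicates 2 and 3 in every panel, as for 14.2% of all genes. Wfdc17 alone among the 6 is higher in ko than in wt after PBS.

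Genes of the inflammatory answer were mostly not called, as were most genes. Over all genes, 0.732% were called lower and 0.199% higher without the library labelled wt replicate 1. Of 20 NF-kB subunits and feedback inhibitors, 1 was lower, and of 25 acute inflammation genes tested, 3 were lower and none higher. Tnip3, which binds the NF-kB inhibitor A20, had 8.92, 24.6, 31.5 and 37.1 CPM in ko, 32.4 in the library labelled wt replicate 1 and 119.6 and 70.0 in wt replicates 2 and 3. Tnip3 fell by 1.89 on the log2 scale (SE 0.40, adjusted p = 0.0251, and -1.54 as labelled). Vcam1, an adhesion molecule induced by inflammation and also a macrophage marker, had 3.7, 4.82, 2.05 and 5.06 CPM in ko, 3.2 in the library labelled wt replicate 1 and 17.7 and 9.52 in wt replicates 2 and 3. Vcam1 fell by 1.81 on the log2 scale (SE 0.37, adjusted p = 0.0227, and -1.38 as labelled). S100a8, a calcium-binding alarmin of myeloid cells, had 6.16, 3.21, 1.82 and 5.41 CPM in ko, 4.16 in the library labelled wt replicate 1 and 19.9 and 13.1 in wt replicates 2 and 3. S100a8 fell by 1.996 on the log2 scale (SE 0.40, adjusted p = 0.0185, and -1.58 as labelled). Wfdc17, a secreted WAP-domain protein of activated myeloid cells with a close copy, Wfdc18, next to it in the genome, had 15.7, 27.7, 54 and 56.6 CPM in ko, 76.3 in the library labelled wt replicate 1 and 116 and 125 in wt replicates 2 and 3. Wfdc17 fell by 1.64 on the log2 scale (SE 0.38, adjusted p = 0.0499, and -1.46 as labelled). In these 4 genes every ko library lay below wt replicates 2 and 3, as for 14.2% of all genes. The library labelled wt replicate 1 lay inside the ko range for all but Wfdc17, where it stood between the groups. Tnip3 lost its call in 6 of 14 alternatives, Vcam1 in 4, S100a8 in 5 and Wfdc17 in 6. None of 30 interferon-stimulated genes or 19 immediate early genes tested was called, with list medians of -0.33 and -0.33.

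Of 29 granulocyte-monocyte genes tested, 3 were lower and none higher, with a median of -0.62 (0.732% of all genes were called lower). Plac8, a cytosolic protein of myeloid progenitors, had 136, 164, 184 and 268 CPM in ko, 180.4 in the library labelled wt replicate 1 and 557 and 501 in wt replicates 2 and 3. Plac8 fell by 1.49 on the log2 scale (SE 0.27, adjusted p = 0.00886, and -1.14 as labelled). Ms4a3, a marker of granulocyte-monocyte progenitors, had 2.92, 2.52, 1.91 and 1.77 CPM in ko, 3.62 in the library labelled wt replicate 1 and 16.5 and 11.4 in wt replicates 2 and 3. Ms4a3 fell by 2.61 on the log2 scale (SE 0.44, adjusted p = 0.00555, and -2.20 as labelled). Tyrobp, the signalling adaptor DAP12, had 1.4, 2.19, 1.32 and 2.47 CPM in ko, 1.29 in the library labelled wt replicate 1 and 6.37 and 6.71 in wt replicates 2 and 3. Tyrobp fell by 1.83 on the log2 scale (SE 0.38, adjusted p = 0.0247, and -1.38 as labelled). The summed level of the 30 listed genes was 1337, 1385, 1389 and 1558 CPM in ko, 1453 CPM in the library labelled wt replicate 1 and 2181.9 and 2035 CPM in wt replicates 2 and 3. After PBS it was 1218, 1232, 1053 and 1580.3 CPM in ko and 1309.7, 1228, 1289 and 1416 CPM in wt. The summed levels were apart after IL-1, without that library, and overlapped after PBS. The list median was nonetheless -0.59 after PBS, near the -0.62 after IL-1. No gene passed edgeR's test of a difference between treatments. Plac8 lost its call in 3 of 14 alternatives, Ms4a3 in 2 and Tyrobp in 6. The myeloid transcription factors Cebpa, Cebpb and Spi1 did not pass, with log2 fold changes of 0.56 ± 0.95, -1.16 ± 0.55 and 0.48 ± 0.53 (SE), and 0.97, -0.87 and 0.79 as labelled.

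Macrophage and haem-recycling genes had the lowest median of the 27 lists, -1.71 over 14 genes tested without the library labelled wt replicate 1 and -1.41 as labelled. Of the 14, 6 were lower and none higher (0.732% of all genes were called lower). Slc40a1, the iron exporter ferroportin, had 16, 11, 12.2 and 13.9 CPM in ko, 16 in the library labelled wt replicate 1 and 38.5 and 27.9 in wt replicates 2 and 3. Slc40a1 fell by 1.32 on the log2 scale (SE 0.27, adjusted p = 0.0193, and -1.05 as labelled). C1qb, a chain of complement C1q, had 0.777, 1.22, 1.68 and 2.38 CPM in ko, 0.936 in the library labelled wt replicate 1 and 8.61 and 7.79 in wt replicates 2 and 3. C1qb fell by 2.44 on the log2 scale (SE 0.44, adjusted p = 0.00808, and -1.94 as labelled). Spic, the transcription factor of red-pulp macrophages, had 3.48, 7.39, 7.65 and 7.62 CPM in ko, 7.65 in the library labelled wt replicate 1 and 22.2 and 17.6 in wt replicates 2 and 3. Spic fell by 1.60 on the log2 scale (SE 0.34, adjusted p = 0.0253, and -1.27 as labelled). Cd163, the haemoglobin scavenger receptor, had 7.84, 11.5, 9.79 and 10.5 CPM in ko, 12 in the library labelled wt replicate 1 and 21.8 and 18.4 in wt replicates 2 and 3. Cd163 fell by 1.02 on the log2 scale (SE 0.24, adjusted p = 0.0469, and -0.81 as labelled). C1qc and Vcam1 were the other two called. Spic and Cd163 fall outside the naming rule and were chosen after their values were seen. Slc40a1 lost its call in 6 of 14 alternatives, C1qb in 3 and C1qc in 7. No ko library overlapped wt replicates 2 and 3 in these genes, and 14.2% of all genes had every ko library below both. Defining markers were low in every library, with lower means in ko. Adgre1, which encodes F4/80, averaged 0.972 CPM in ko and 2.7 CPM in wt replicates 2 and 3, and Timd4 averaged 0.0995 CPM in ko and 1.22 CPM in wt replicates 2 and 3. The summed level of the 15 genes was 55.2, 56.9, 55.9 and 61.2 CPM in ko, 62.7 CPM in the library labelled wt replicate 1 and 169.8 and 138 CPM in wt replicates 2 and 3. The same gap stood after PBS, 65.7, 49.6, 49.7 and 62.4 CPM in ko and 182, 150.2, 175 and 170.4 CPM in wt. These sums do not measure the share of macrophage cells or RNA, and the part of macrophage RNA in the other falls was not tested.

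Of 24 megakaryocyte-platelet genes tested, 3 were lower and none higher, with a median of -0.52. Over all genes, 0.732% were called lower and 0.199% higher. Mmrn1, the platelet and endothelial protein multimerin, had 42.3, 71.3, 62.7 and 59.1 CPM in ko, 48 in the library labelled wt replicate 1 and 243 and 236 in wt replicates 2 and 3. Mmrn1 fell by 2.02 on the log2 scale (SE 0.37, adjusted p = 0.00955, and -1.58 as labelled). Pf4, a chemokine of platelet granules, had 12.1, 41.5, 20.7 and 49 CPM in ko, 34.8 in the library labelled wt replicate 1 and 275 and 102 in wt replicates 2 and 3. Pf4 fell by 2.61 on the log2 scale (SE 0.46, adjusted p = 0.00789, and -2.16 as labelled). Wt replicate 2 was far above wt replicate 3 for Pf4, and without wt replicate 2 the adjusted p was 0.327. Slc14a1, a urea transporter, had 55.5, 83.7, 77.8 and 78.1 CPM in ko, 72.4 in the library labelled wt replicate 1 and 156 and 149.9 in wt replicates 2 and 3. Slc14a1 fell by 1.05 on the log2 scale (SE 0.22, adjusted p = 0.023, and -0.77 as labelled). Itga2b, the platelet integrin CD41, was not called after IL-1 (log2 fold change of -0.12, adjusted p = 0.923, and 0.03 as labelled), although it was called in untreated HSC (log2 fold change of -1.13, adjusted p = 0.00574). Of 22 erythroid genes, 2 were lower, Rhag, given above, and Hemgn. Hemgn, a nuclear regulator of blood cells, had 11.5, 18.5, 20.9 and 20.1 CPM in ko, 26.3 in the library labelled wt replicate 1 and 52.8 and 46.1 in wt replicates 2 and 3. Hemgn fell by 1.47 on the log2 scale (SE 0.25, adjusted p = 0.00636, and -1.23 as labelled). Of 12 stroma and endothelium genes, Bgn and Pecam1 were lower. Pecam1 had 41.3, 54.8, 65.8 and 37.4 CPM in ko, 48.4 in the library labelled wt replicate 1 and 124 and 133 in wt replicates 2 and 3. Pecam1 fell by 1.36 on the log2 scale (SE 0.28, adjusted p = 0.0228, and -1.03 as labelled). Mmrn1 lost its call in 3 of 14 alternatives, Slc14a1 in 7, Hemgn in 3 and Pecam1 in 6.

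Of 19 lymphoid-primed genes tested, Gata3, a transcription factor of T-cell and innate lymphoid development that HSC also express, was lower. Its level was 26.1, 41.1, 24.5 and 33.2 CPM in ko, 26.4 in the library labelled wt replicate 1 and 64 and 60.4 in wt replicates 2 and 3. Gata3 fell by 0.99 on the log2 scale (SE 0.22, adjusted p = 0.0337, and -0.69 as labelled). The list median was -0.84, and 2 of 19 fold changes were positive. Over all genes, 0.732% were called lower. Of 9 mast cell, basophil and eosinophil genes, the adaptor Clnk was lower, at 3.17, 1.88, 0.897 and 2.25 CPM in ko, 3.23 in the library labelled wt replicate 1 and 14.6 and 9.35 in wt replicates 2 and 3. Of 13 mature neutrophil genes, S100a8 and the granule gene Ngp were lower. Ngp fell by 2.71 on the log2 scale (SE 0.57, adjusted p = 0.0253, and -2.26 as labelled). Gata3 lost its call in 8 of 14 alternatives, Clnk in 7 and Ngp in 6. None of 10 B cell and plasma cell genes and none of 14 MHC class II pathway genes was called. Their list medians were -1.53 and -0.47, with 2 positive fold changes in each.

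Genes that mark HSC were not called: 0 of 30 passed in either direction in edgeR's test without the library labelled wt replicate 1, and 0 passed as labelled. Over all genes 0.932% were called without that library and 0% as labelled, so these counts do not set the list apart. The list median was 0.08. Hlf, a transcription factor of stem cells, had 339, 544, 564 and 569.7 CPM in ko, 506 in the library labelled wt replicate 1 and 507 and 561 in wt replicates 2 and 3 (log2 fold change -0.08 ± 0.25, SE). Slamf1, the surface marker CD150, had 43.5, 45, 44.3 and 47.4 CPM in ko, 54.3 in the library labelled wt replicate 1 and 40.3 and 36.4 in wt replicates 2 and 3 (0.24 ± 0.23, and 0.04 as labelled). Mecom, which maintains long-term HSC, had 0.33 ± 0.27 on the log2 scale. The nearest to the threshold was Procr, which encodes the HSC surface receptor EPCR, with 43.2, 51, 55.3 and 67.2 CPM in ko, 68.4 in the library labelled wt replicate 1 and 104 and 111 in wt replicates 2 and 3. All ko libraries lay below both remaining wt libraries, as for 14.2% of all genes, with a log2 fold change of -0.98, adjusted p = 0.0715, and -0.80 as labelled. The cell cycle brake Cdkn1c did not pass either (log2 fold change of -0.26, adjusted p = 0.773, and -0.15 as labelled). The other listed methyltransferase and complex genes did not pass. Of 21 H3K4 methyltransferase and complex genes, Kmt2c alone was called, and Kmt2d and Kdm6a had log2 fold changes of -0.02 ± 0.38 and 0.48 ± 0.39 (SE).

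Growth genes did not pass. With 0.932% of all genes called without the library labelled wt replicate 1, this does not set their lists apart. Of 25 ribosome biogenesis genes and MYC targets, none was called, 23 had a positive fold change, and the median was 0.80 (0.50 as labelled), against 0.09 after PBS and 0.01 in untreated HSC. Of 30 DNA replication genes, none was called, 26 were positive, and the median was 0.49 (0.07 as labelled). Of 30 mitosis genes, none was called and the median was 0.43 (0.09 as labelled). Myc, the growth regulator, had 468, 413, 418 and 228 CPM in ko, 429 in the library labelled wt replicate 1 and 232 and 195 in wt replicates 2 and 3 (log2 fold change of 0.84, adjusted p = 0.342, and 0.42 as labelled). Mcm2, a subunit of the replicative helicase, averaged 198 CPM in ko, 172 CPM in the library labelled wt replicate 1 and 75.9 CPM in wt replicates 2 and 3 (log2 fold change of 1.39 ± 0.40 (SE), adjusted p = 0.135, and 0.87 as labelled). Summed DNA replication genes stood at 4751, 3145, 3320.4 and 2767 CPM in ko, 4057 CPM in the library labelled wt replicate 1 and 2364 and 2186 CPM in wt replicates 2 and 3. Ko replicate 4, which had the highest mitochondrial share of the ko libraries, was the lowest of them. The part of the mitochondrial share in this order was not tested for the lists.

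**Figure D4:**
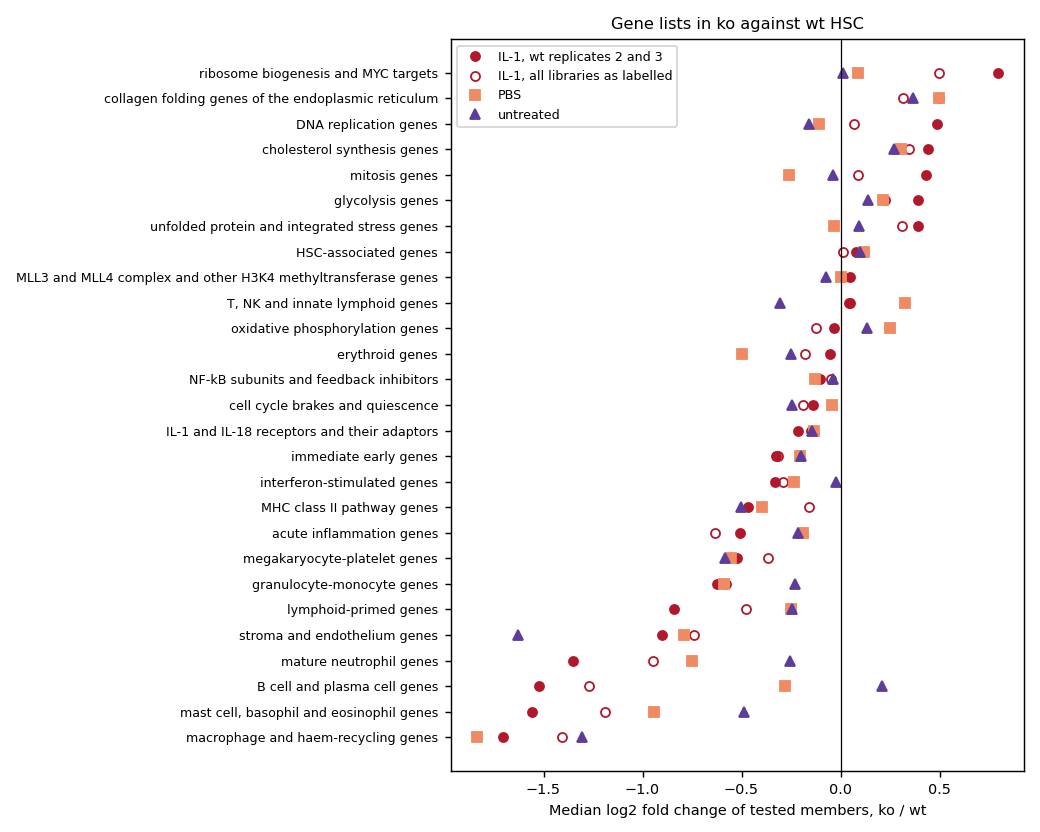
Median log2 fold change, ko over wt, of the tested members of each of 27 gene lists, with 1 symbol per comparison. Macrophage genes lie lowest after IL-1 (-1.71) and near there after PBS and untreated, while ribosome biogenesis genes lie at 0.80 after IL-1 without the library labelled wt replicate 1 and at 0.09 and 0.01 after PBS and untreated.

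Of 22 collagen folding genes of the endoplasmic reticulum, Fkbp10 and Serpinh1 were higher and none lower (0.199% of all genes were called higher). Of the 22, 18 had a positive fold change (median 0.50, and 0.31 as labelled). Gpx8, a peroxidase of the same compartment, had 6.9, 11.6, 8.85 and 13.4 CPM in ko, 13.2 in the library labelled wt replicate 1 and 3.72 and 0.839 in wt replicates 2 and 3 and did not pass (log2 fold change of 2.11, adjusted p = 0.121, and 0.77 as labelled), although it was called after PBS (log2 fold change of 3.99, adjusted p = 0.00516) and in untreated HSC (log2 fold change of 3.42, adjusted p = 7.86e-06). Of 21 unfolded protein and integrated stress genes, Asns was higher. None of 25 oxidative phosphorylation, 18 glycolysis or 22 cholesterol synthesis genes was called.

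Ko and wt HSC of other treatments share no library with the IL-1 comparison. The PBS libraries entered both IL-1 fits, however, and so their estimates of the spread. The PBS calls came from the fit with every library as labelled (16538 genes tested). The 159 IL-1 calls came from the fit without the library labelled wt IL-1 replicate 1 (17068 genes tested). Counts of genes shared by the PBS and IL-1 calls, or called after IL-1 alone, therefore compare calls from different fits, filters and spreads. After PBS, 132 of 16538 genes were called (0.798%), and in untreated HSC 246 of 13806 (1.78%). Of the 246, 79 were higher (0.572% of genes) and 167 lower (1.21%). Leaving out 1 library gave 42 (without ko replicate 2) to 91 calls after PBS, a change of over 1.5 times for 7 of the 8. In untreated HSC it gave 151 without ko replicate 1, 153 without wt replicate 4 and 166 to 233 without any other. Of the 159 genes called after IL-1 without the library labelled wt replicate 1, 61 were also called after PBS (38.4% of the 159 and 46.2% of the 132), and 60 of these had the same sign. The exception was Wfdc17. In untreated HSC, 85 were called as well (53.5% of the 159 and 34.6% of the 246), all with the same sign. Of the 159, 48 were called in all 3 comparisons and 61 after IL-1 alone, which does not show that those 61 differed between treatments. Of the 158 also tested after PBS, 156 had the same sign there, as did 150 of the 154 tested in untreated HSC.

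The reverse reading does not depend on choosing genes from the IL-1 libraries. Of the 246 genes called in untreated HSC, 228 (92.7%) had the same sign in the IL-1 comparison with every library as labelled, against 51.8% of all genes tested in both. None of the 246 passed as labelled. The 167 of them that were lower in untreated ko had a median log2 fold change of -1.46 there and -1.03 after IL-1 as labelled; the 79 that were higher had 1.305 and 0.51. Without the library labelled wt replicate 1, 236 (95.9%) had the same sign, 85 were called, and the medians after IL-1 were -1.43 for the lower and 1.06 for the higher genes.

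**Figure D5:**
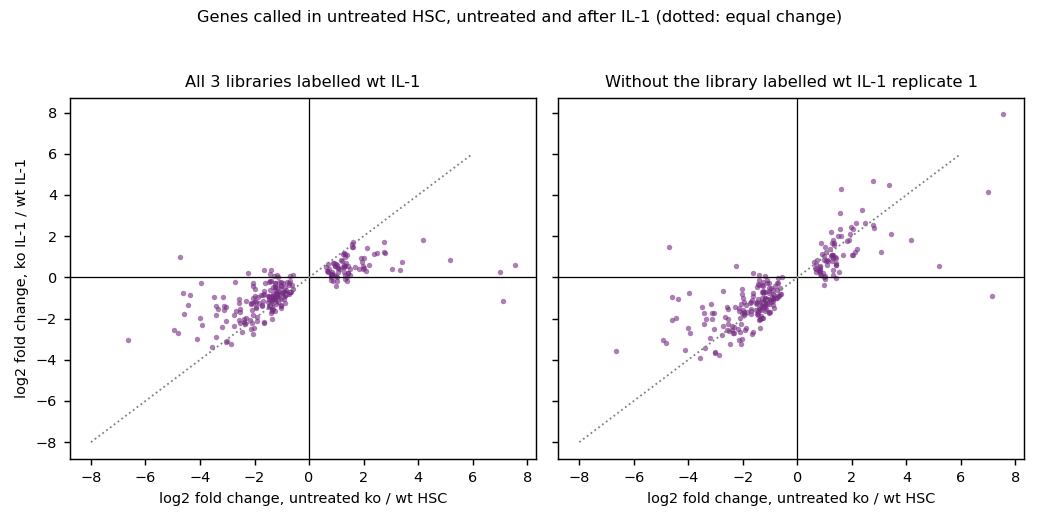
Log2 fold change, ko over wt, in untreated HSC (horizontal) against that after IL-1 (vertical) for the 246 genes called in untreated HSC, with all libraries as labelled on the left and without the library labelled wt IL-1 replicate 1 on the right. Points left of 0 lie mostly below 0 and points right of 0 mostly above it (228 of 246 on the left, 236 on the right), and the points on the left lie closer to the horizontal axis.

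Whether the ko against wt difference changed with treatment was tested gene by gene as an interaction. No gene passed in edgeR's test with all 15 HSC libraries (smallest adjusted p = 0.165; 756 genes at an unadjusted p under 0.05, 4.57% of those tested) or without the library labelled wt replicate 1 (smallest adjusted p = 0.143; 896 genes, 5.25%). DESeq2 called 1 gene with all libraries, Wfdc17 (difference of log2 fold changes -2.98, adjusted p = 7.08e-05). Of 22 alternatives with all libraries, 4 called Wfdc17, and its adjusted p ran up to 0.672. Wfdc17 had 12.6, 8.89, 16.5 and 19.9 CPM in ko PBS and 4.81, 5.85, 3.67 and 5.92 CPM in wt PBS HSC, a rise in ko (log2 fold change of 1.52, adjusted p = 0.0449), and after IL-1 15.7, 27.7, 54 and 56.6 CPM in ko and 76.3, 116 and 125 CPM in the 3 libraries labelled wt. The ko libraries were all above wt after PBS and all below it after IL-1. In untreated HSC it had 7.07, 13.8, 10.1 and 7.35 CPM in ko and 5.68, 7.22, 7.25 and 7.79 CPM in wt and was not called (adjusted p = 0.656).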

How the data were processed

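RNA-seq of mouse blood cells was deposited by the authors as raw gene-level read counts in 2 tables of 41388 mouse gene IDs. Per the submitters' processing notes, STAR 3.0.4 aligned the reads and featureCounts 1.4.5 of Subread counted them. Genome build and strand setting: not given in the sources used here. Per the labels' protocols, RNA was extracted with a Qiagen micro kit and amplified with a Clontech kit. Symbols and coordinates come from GENCODE M21 (GRCm38), which held 40340 of the IDs. Totals per library in the table used for IL-1 ran from 18.6 to 42.8 (in units of 1000000 counts), which limits genes of a few counts. The deposited counts were fitted with edgeR 4.0.16 (R 4.3.3): filterByExpr (minimum count 10, total 15), TMM scaling, robust quasi-likelihood test, 1 term per group over all 15 HSC libraries of that table (12 untreated HSC libraries, heterozygotes included, in the other), and Benjamini-Hochberg adjustment over all genes tested, called under 0.05. The steps were tested on simulated data. The IL-1 tests were run a second time with wt IL1 replicate 1, as labelled, left out. Alternatives were DESeq2 1.42.0, limma 3.58.1, other scaling, no filter, a replicate block, covariates and left-out libraries. Named genes were Kmt2c and a panel, up to 10 called genes per direction by size (mean of at least 5 CPM, no overlap), and up to 3 per list. The comparison, panel and lists were chosen with earlier results of these data known.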

Additional observations from a re-analysis of the deposited data

Results flagged for a closer look

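Hlf in HSC ko IL1 replicate 1 stood at 339 CPM, against 544, 564 and 570 CPM in the other ko IL-1 libraries, a gap large for a group of 4; the libraries labelled wt had 506, 507 and 561 CPM. About 1 group in 20 is marked this way by chance, and ko replicate 1 was also the library with the highest Asns level and the only Y-linked one of the ko IL-1 group.

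Wfdc17 moved in opposite directions between treatments: every ko library was below every library labelled wt after IL-1 and above every wt library after PBS. The log2 fold change after IL-1 minus that after PBS was -2.98, and edgeR's test of this difference, adjusted over all genes, gave 0.165, so it did not pass. DESeq2 gave an adjusted p of 7.08e-05 with all libraries and 9.28e-05 without the library labelled wt replicate 1. Its near copy Wfdc18 may share reads with it.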

How the results depend on the processing

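No gene called after IL-1 without the doubted library (159), after PBS (132) or in untreated HSC (246) had the other sign under any of the 14, 16 and 16 alternatives that gave it a value. With all libraries as labelled, the count of called genes after IL-1 was 0 in edgeR's main test, 89 with DESeq2, 43 with no filter on low counts, 393 with limma voom, 0 to 159 when a library was left out (159 without the library labelled wt replicate 1, 0 without any other), and 190 with the replicate block. Without that library the 159 calls became 412 with DESeq2, 640 with no filter, 555 with limma voom, 494 with the replicate block, 247 with only the groups compared, 95 with the Y-linked covariate, 49 with the mitochondrial share covariate, and 22 to 169 when a further library was left out; the fits without wt replicate 2 or 3 assume that the lone wt library varies like the other groups. RLE scaling gave 159. After PBS the 132 calls became 375 with DESeq2, 246 with no filter, 64 with the Y-linked covariate, and 42 to 91 with a library left out. In untreated HSC the 246 calls became 440 with DESeq2, 430 with limma voom, and 151 to 233 with a library left out. For the difference between treatments, DESeq2 called 1 gene with all libraries and 3 without the doubted one, no filter 1 and 41, the Y-linked covariate 1 and 1, and leaving out wt replicate 2 as well called 1; the replicate block called 20 and 27, among them Wfdc17, Mcm2, Pold1 and mitochondrial genes. The cause of these changes was not tested. Deviations of same-numbered ko and wt IL-1 libraries correlated at 0.24, -0.09 and -0.02 for replicates 1 to 3. Replicate 4 has no wt IL-1 library, so these values cannot show whether the numbers pair libraries. Replicate 4 had a mitochondrial share of 3.55% in ko IL-1, 2.97% in ko PBS and 4.50% in wt PBS, the highest of each group. Wt IL-1 replicates 2 and 3 had 4.9 and 4.48%. Whether a batch follows the numbers is not known, and the replicate block is kept as an alternative. Of the calls of single named genes without the doubted library, 150 were lost and 15 gained over all alternatives. Losses were most frequent when wt replicate 2 or 3 was also left out or the mitochondrial share was added.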
